A study of Xenopus tropicalis with 54 samples.

Results

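The broad Bcat peaks described here are the wider binding regions of β-catenin in the gastrula of *Xenopus tropicalis*, a diploid clawed frog, that lay outside dense runs of peaks. They were chosen from 1 list of 11711 peaks by their width and spacing: a peak on an assembled chromosome was taken when its end minus its start was 700 bp or more, and when fewer than 5 peaks stood in its chain. A chain joined consecutive peaks whose edges were at most 12.5 kb apart. The rule took 492 peaks, which were 4.2% of the list and 5.54% of the 8873 chromosome peaks outside dense chains. The other 8381 of those peaks, all under 700 bp, are called narrower peaks and serve for comparison.

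The study asked how Sox17, a transcription factor of the endoderm, and the Wnt effector β-catenin act on the same genome in early embryos. Its 54 samples were all whole embryos of the Nigerian strain, with 2 Sox17 ChIP-seq samples at Nieuwkoop and Faber (NF) stage 10.5 and 52 RNA-seq samples. The RNA-seq covered 12 samples injected with a Sox17 morpholino (Sox17-MO) and 12 uninjected samples at NF9 to NF12, and 14 samples injected with a β-catenin morpholino (Bcat-MO) and 14 uninjected samples at NF7 to NF12. Although the deposited list carries the name of Sox17, its coordinates are those of the Bcat peaks that the authors called at NF10.5 from a published ChIP-seq dataset, so none of the 54 samples gave its reads. It holds positions alone, without a height, score or read count. Depth is therefore unknown, peaks could not be ranked by strength, and no value has a spread between replicates. The chromatin came from whole embryos, so the cells in which a region was bound cannot be told from the list.

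β-catenin is the nuclear effector of canonical Wnt signalling. It does not bind DNA by itself, and is recruited to enhancers by partners such as Tcf and Lef proteins. In the frog embryo, maternal β-catenin on the dorsal side turns on the organizer genes, and later zygotic Wnt signals pattern the embryo along its anterior to posterior axis. A ChIP-seq peak marks a stretch in which reads pile up over the input, and its width is the length of that stretch as the peak caller set it.

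The broad peaks had a median width of 812 bp, with quartiles of 750 and 917.8 bp and a largest value of 5696 bp. Of the 492, 86 reached 1000 bp and 5 reached 2000 bp. The narrower peaks had a median of 366 bp. Because width chose the members, these values describe the choice and are not a result. The limit fell inside a continuous range, since 49 broad peaks were less than 20 bp above it and 66 narrower peaks were at most 20 bp below it. Among peaks with a gene name, the nearest above it were those of *c1galt1c1* at 700 bp and of *MGC69473*, *rbm24* and *dnaja4.2* at 702 bp each, and the nearest below it were those of *meis3* at 699 bp and of *ebf1*, *cdh2* and *atp8a1* at 694 bp each. Broad peaks held 442.4 kb in all, or 8.74% of the bases covered by the list.

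**Figure D1:**
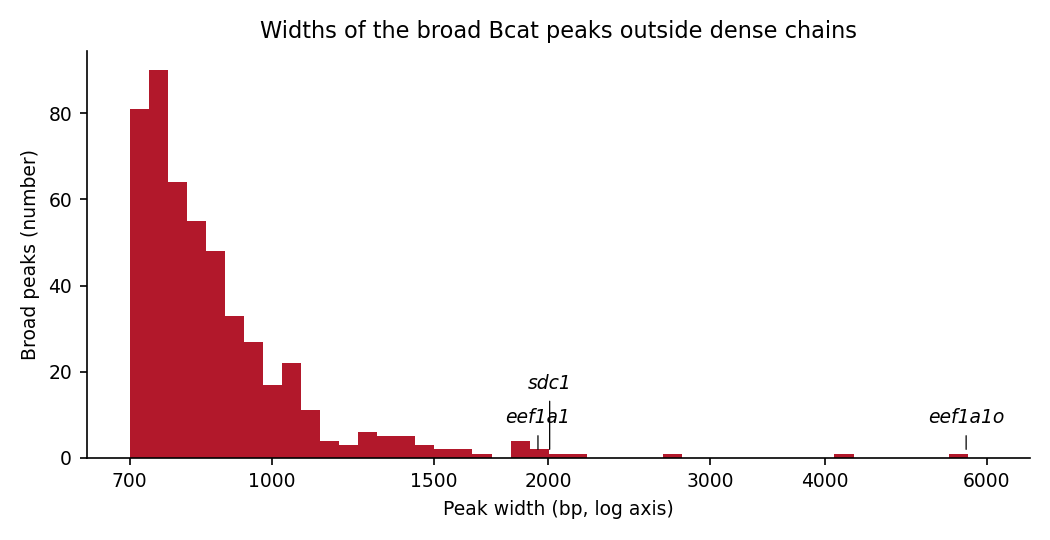
Number of broad Bcat peaks outside dense chains by width in bp, on a log axis from the 700 bp limit upwards, for all 492 peaks. The widths pile up near the limit, with a median of 812 bp, and the peak named for *eef1a1o* stands alone at 5696 bp.

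No sequence of a broad peak was at hand, and a motif search within the peaks was not made. The nearest sequence was a reporter-tested 150-bp window near *osr1*, a zinc finger transcription factor of mesoderm and endoderm, at chr5:138520827-138520976 of the v9.0 genome. Its position was not checked against a genome. It is shown because its closest Bcat peak in the list, 5800 bp away at 138526777 to 138527849, was a broad peak of 1073 bp.
osr1 window: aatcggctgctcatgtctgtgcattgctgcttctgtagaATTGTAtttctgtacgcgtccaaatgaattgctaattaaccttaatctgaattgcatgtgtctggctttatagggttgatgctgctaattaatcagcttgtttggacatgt
Capitals mark matches to the Sox consensus, searched on both strands as NNCAAN with A or T at each N, which gives 8 words of 6 bases. The window held 1 match, on the complementary strand, starting at position 40 from its first base. The only other wild-type sequence of this length at hand, the *igf3* window on chromosome 7, held matches at 75 and 116. The peak closest to it was a narrower one of 580 bp, 4007 bp away. By these coordinates neither window met a Bcat peak of the list. The study presents both windows as enhancers with predicted Sox17 sites and without Tcf sites, so a match in each was built into their choice. A match is a run of letters and was not tested here as a binding site. The study also gives a Sox17-site mutant of the *osr1* window, which alters several separate stretches, among them the one with this match. The consensus used here therefore does not count the sites that the study predicted.

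Broad peaks had closer neighbours than narrower peaks. The median gap to the nearest peak, edge to edge, was 6351 bp for broad peaks (95% interval of the median 4959 to 8078 bp, n = 492) and 16803 bp for narrower peaks (15789 to 17791 bp, n = 8381). The quartiles of the gap were 1803 and 23973 bp for broad peaks and 3665 and 63240 bp for narrower peaks. Another peak lay within 12.5 kb of 317 of the 492 broad peaks, or 64.4% (95% Wilson interval 60.1 to 68.5%), and of 3705 of the 8381 narrower peaks, or 44.2% (43.2 to 45.3%). The difference was 20.2 percentage points (95% Newcombe interval 15.8 to 24.5). All such intervals cover counting error only and treat peaks as independent, although the peaks of 1 library and 1 locus are not. No p-value was computed, since the list has no replicates. Spacing, like width, was used by the rule, so these values describe the chosen peaks. Dense chains, set by the same 12.5 kb, held 33.0% of chromosome peaks of 700 bp or more and 16.3% of those under 700 bp. With dense chains kept, another peak lay within 12.5 kb of 76.2% of broad and 53.3% of narrower peaks.

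The same order held at every distance counted. Within 1000 bp a neighbour stood beside 15.9% of broad and 9.09% of narrower peaks, and within 5000 bp beside 45.9% of broad and 29.6% of narrower peaks. At the far end, another peak lay within 100 kb of 90.65% of broad and 82.81% of narrower peaks. That left 46 of the 492 broad peaks without one. The gap was measured between edges, which a wide peak shortens a little. Measured centre to centre the shares were 63.8% of broad and 43.7% of narrower peaks.

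The groups differed in the share of peaks with a neighbour, whereas the gaps inside chains of 2 to 4 were similar. By the rule those gaps are at most 12.5 kb, and dense chains are left out. The comparison inside chains therefore cannot show how close neighbours were in general. Among peaks in chains of 2 to 4, the median gap was 2725 bp for broad peaks (2235 to 3215 bp, n = 317) and 2946 bp for narrower peaks (2756 to 3118 bp, n = 3705), intervals that overlap. Single peaks, alone in their chain, made up 35.6% of broad and 55.8% of narrower peaks. Chains of 4 held 17.3% of broad and 8.29% of narrower peaks.

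**Figure D2:**
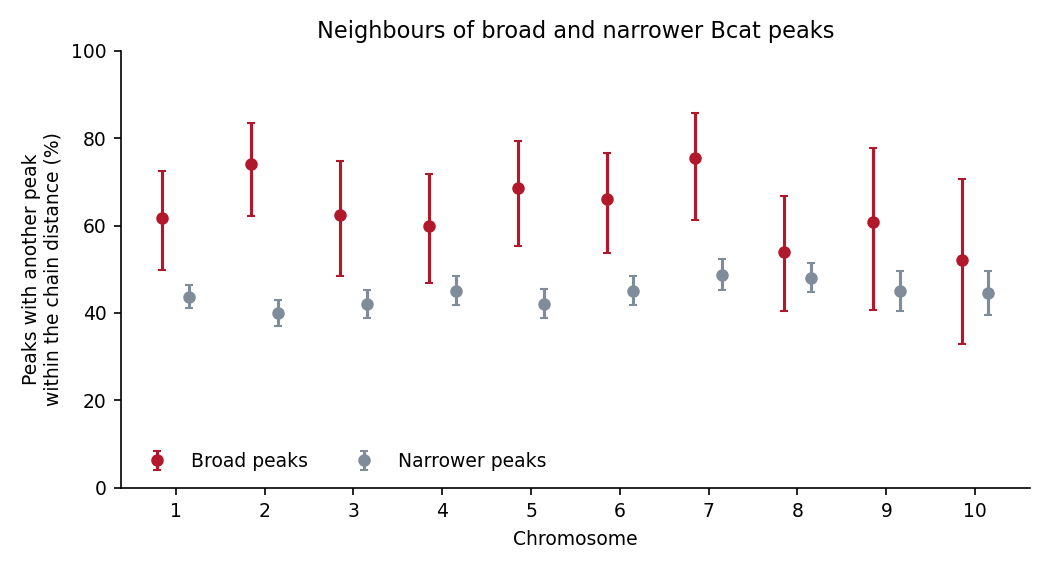
Share of broad (red, left) and narrower (grey, right) Bcat peaks with another peak within 12.5 kb, in percent, for each of the 10 chromosomes, where bars are 95% Wilson intervals. The red point is above the grey one on all 10 chromosomes, and the intervals do not overlap on 6 of them.

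Each chromosome gave the same direction. The share with a neighbour was higher among broad peaks than among narrower peaks on 10 of 10 chromosomes. It ran between 52.2% of broad against 44.5% of narrower peaks on chromosome 10, where 23 broad peaks were counted, and 75.6% of broad against 48.8% of narrower peaks on chromosome 7. On chromosome 8 the shares were 53.8% of 52 broad peaks and 48.1% of narrower peaks, the closest pair of the 10. The median gap was likewise shorter for broad peaks on all 10 chromosomes.

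Across width classes the neighbour share was higher in each wider class up to 999 bp, on both sides of the 700 bp limit. Outside dense chains it was 34.1% in peaks under 300 bp, 42.9% at 300 to 399 bp, 47.9% at 400 to 499 bp, 54.5% at 500 to 599 bp and 57.3% at 600 to 699 bp. In broad peaks it was 60.3% at 700 to 799 bp, 68.1% at 800 to 999 bp and 67.4% at 1000 bp or more. The intervals of the 600 to 699 bp class, 52.5 to 62.0%, and of the 700 to 799 bp class, 53.7 to 66.5%, overlap, so the peaks on either side of the limit were not told apart by this measure. The classes of 800 to 999 bp and of 1000 bp or more also overlap.

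**Figure D3:**
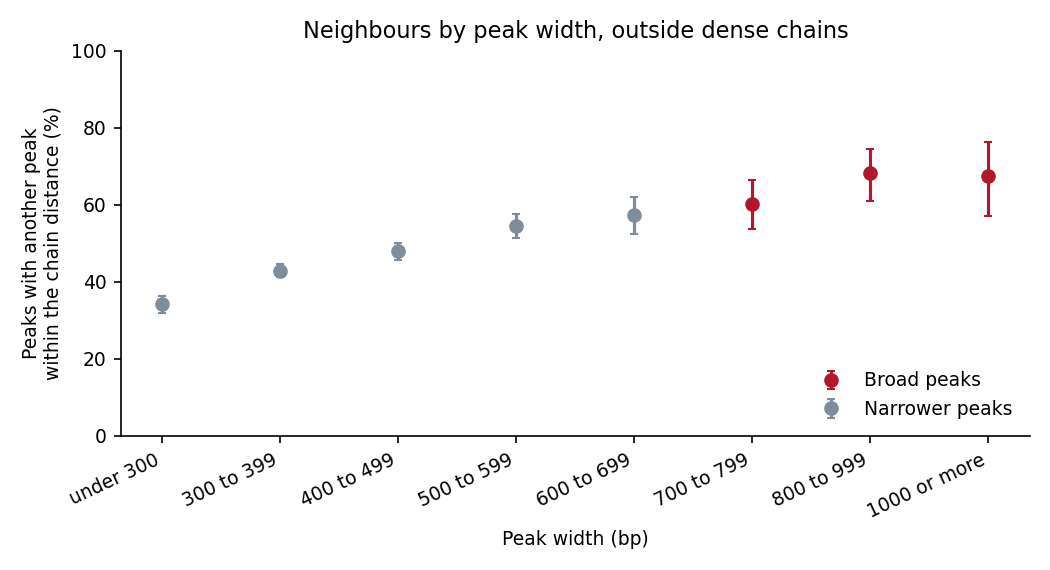
Share of Bcat peaks outside dense chains with another peak within 12.5 kb, in percent, by class of peak width in bp, with broad peaks in red, narrower peaks in grey and 95% Wilson intervals as bars. The share runs from 34.1% under 300 bp to 67.4% at 1000 bp or more, and the bars of the classes on either side of the 700 bp limit overlap.

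Seen from the chains, 3.61% of 4851 single peaks were broad (3.12 to 4.17%). The share was 6.89% of 2090 peaks in chains of 2, 7.64% of 1152 peaks in chains of 3 and 10.9% of 780 peaks in chains of 4 (8.90 to 13.3%). Dense chains, which the rule left out, held 242 of the 734 chromosome peaks of 700 bp or more, or 33.0%, and 16.3% of the peaks under 700 bp. Their broad share was 13.0% both at 5 peaks and at 10 peaks or more. In between, it ran from 10.15% at 7 peaks to 14.81% at 9 peaks. The broad peaks of dense chains had a median width of 815.5 bp, against 812 bp for those outside them. Both groups start at 700 bp, so similar medians were largely built in. Outside dense chains the median was 792 bp for single broad peaks (774 to 824 bp) and 803 bp in chains of 2. It was 838.5 bp in chains of 3 and 839 bp in chains of 4 (803 to 880 bp), with overlapping intervals.

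The partners of broad peaks were mostly of ordinary width. The peak nearest to a broad one, within 12.5 kb, had a median width of 412 bp (401 to 441 bp), and the peak nearest to a narrower one 398 bp (392 to 403 bp). It was itself 700 bp or more for 26 of 317 broad peaks, or 8.20% (5.66 to 11.8%), and for 7.75% of 3705 narrower peaks (6.93 to 8.65%), and these intervals overlap. Of 468 chains with a broad peak outside the dense chains, 445 had 1, 22 had 2 and 1 had 3. The 445 include 175 single peaks, for which no other count was possible. In chains of 3, 69.3% of broad and 66.4% of narrower peaks were at an end of the chain. In chains of 4, 48.2% of broad and 50.2% of narrower peaks were, with overlapping intervals in both cases. Any chain of 3 or of 4 has 2 peaks at its ends, which sets the share over all its peaks. The narrower share, from most of those peaks, was therefore close to fixed. The nearest other broad peak was a median of 585894.5 bp away, and 119 of the 492 had one within 100 kb.

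The chromosomes differed little in their share of broad peaks. Broad peaks made up between 4.67% of the peaks outside dense chains on chromosome 9 (3.14 to 6.92%, 23 broad peaks) and 6.62% on chromosome 6 (5.20 to 8.40%, 62 broad peaks), and the interval held the pooled 5.54% on all 10 chromosomes. Chromosome 1, with the most broad peaks at 68, had a share of 4.88%. Per Mb of the span from the chromosome's first base to its last peak, the number ran from 0.286 on chromosome 9 to 0.576 on chromosome 10, which also had the highest density of all peaks at 10.6 per Mb, against 7.20 on chromosome 9. Within the chromosomes, 23.6% of broad peaks (20.04 to 27.5%) and 18.4% of narrower peaks (17.6 to 19.3%) lay in the outer 10% at either end of the span.

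Gene names were at hand for 171 of the 492 broad peaks and 2514 of the 8381 narrower peaks, from 2 tables of the study that assign a peak to the gene with the nearest transcription start site. The copies used here are partial, one running in order of gene name and the other holding genes that changed in Bcat-MO embryos, so a broad peak without a name is not a peak without a gene, and no share of named peaks was compared between groups. The 171 peaks belonged to 153 gene names, of which 143 were found as symbols in RefSeq. A name says which start site was nearest and not that the peak acts on that gene.

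The widest broad peak of all, 5696 bp at 86677211 to 86682906 on chromosome 2, was named for *eef1a1o*, the oocyte form of translation elongation factor 1 alpha. It lay 156 bp from a narrower peak of 683 bp, and a further peak of 577 bp began 2462 bp after it. The peak of the related gene *eef1a1*, on chromosome 5, was also among the widest at 1948 bp, with narrower peaks of 518, 436 and 228 bp in the same chain. Of the 12 widest broad peaks, 9 had no gene name at hand. They included peaks of 4122 bp on chromosome 9 (9634478 to 9638599), of 2675 bp on chromosome 4 (38970906 to 38973580) and of 2174 bp on chromosome 1 (83042122 to 83044295), named here by position after their widths were seen.

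The other 13 of the 15 widest peaks with a name covered several functions. Cell surface and adhesion genes were *sdc1*, a heparan sulfate proteoglycan of the syndecan family, at 2006 bp, *cldn6.2*, a claudin of tight junctions, at 1405 bp, and *bcar1*, an adaptor protein of focal adhesions, at 1211 bp. The *sdc1* peak lay 1282 bp from a narrower peak of 532 bp, and the *bcar1* peak was single, 34541 bp from the nearest other peak. Signalling and cell cycle genes were *ctnnb1*, which encodes β-catenin itself, at 1262 bp, *ccne2*, a cyclin of the G1 to S transition, at 1606 bp, *ralgds*, an exchange factor for Ral GTPases, at 1209 bp, and *dennd2c*, a DENN domain protein, at 1337 bp. Of the transcription regulators, the homeobox gene *hoxd1* had a peak of 1200 bp and the coregulator gene *mn1* one of 1408 bp, which stood only 62 bp from a narrower peak of 311 bp. The rest were *cnnm1*, of a family of metal transport mediators, at 1594 bp, *clmn* at 1416 bp, *acmsd*, an enzyme of tryptophan breakdown, at 1338 bp and *MGC76254* at 1290 bp.

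Among the 171 named broad peaks, the gene with the most was *otx2*, a homeobox gene of the organizer and the anterior head, with 5 of its 10 peaks. All 10 lay within 110.1 kb on chromosome 8. The 5 broad ones were, in order, at 83752130 to 83752982 (853 bp), 83754391 to 83755249 (859 bp), 83806152 to 83807188 (1037 bp), 83808053 to 83809119 (1067 bp) and 83852215 to 83853300 (1086 bp). The first 4 formed 2 chains made of broad peaks alone, with gaps of 1408 and 864 bp inside the pairs and more than 50 kb between them. The last opened a chain of 4 whose other peaks were 514, 461 and 344 bp wide. The remaining peaks of *otx2*, of 428 and 248 bp, were single.

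Of the 153 gene names, 13 had 2 or more broad peaks. Those of *fzd10*, a Frizzled receptor for Wnt ligands, were 740, 1048 and 791 bp wide, and its 9 peaks spanned 69.1 kb of chromosome 1 in 2 chains of 4 and a single peak. Those of *id2*, an inhibitor of basic helix-loop-helix factors and a known target of BMP signals, were 881, 805 and 1083 bp wide, and the last 2 stood 489 bp apart. Both broad peaks of *aldh1a2*, the enzyme that makes retinoic acid, were in the first of its 2 chains, at 803 and 1062 bp, whereas the second chain, more than 55 kb away, held 4 narrower peaks of 286 to 600 bp. The broad peaks of *cdh3*, a classical cadherin whose tail binds β-catenin, formed a pair of 755 and 830 bp with 528 bp between them, and a second pair of its peaks, 351 and 311 bp wide, stood 19186 bp further on.

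Other genes with 2 broad peaks held them in 1 chain or spread over several. In 1 chain were those of *amotl2*, an angiomotin family scaffold (1073 and 746 bp), *cdknx*, a cyclin-dependent kinase inhibitor (976 and 709 bp), *cbfa2t2*, a transcriptional corepressor (711 and 830 bp), and *LOC100488209* (1126 and 943 bp, 1279 bp apart). In separate chains were those of *arid2*, a subunit of a chromatin remodelling complex (738 and 925 bp), *plekhg1* (951 and 768 bp), *LOC733735* (844 and 895 bp) and *gas1*, a Hedgehog co-receptor (950 and 1133 bp). *gas1* was the only one of the 13 with peaks in a dense chain, which held 4 of its 9 peaks, among them peaks of 820 and 742 bp that the rule left out.

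**Figure D4:**
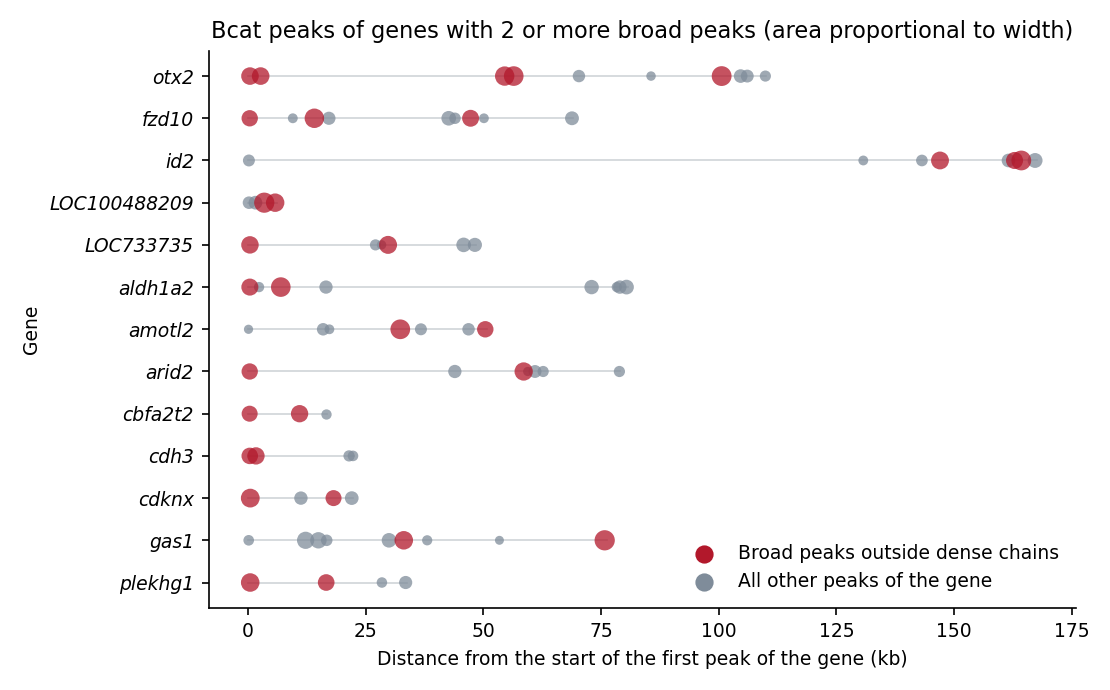
Position of every named Bcat peak of the 13 genes with 2 or more broad peaks, in kb from the start of the gene's first peak, with broad peaks outside dense chains in red, all other peaks of the gene in grey, and the area of a point proportional to peak width. The 5 red points of *otx2* fall at 3 places, and the *id2* row extends over 167.5 kb because its first peak is far from the rest.

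Genes with a broad peak had more peaks. Among 1042 genes whose peaks were listed in full, 81 had a broad peak and 855 had narrower peaks outside dense chains but no broad one. The first had a median of 2 peaks per gene (quartiles 1 and 4) and the second a median of 1 (quartiles 1 and 2). At least 2 peaks were found for 71.6% of genes with a broad peak (61.0 to 80.3%) and for 36.1% of genes without one (33.0 to 39.4%). A gene with more peaks also has more peaks that could reach 700 bp. Counted per peak, 4.04% were broad in genes with 1 peak (2.71 to 5.99%), 6.33% in genes with 2 to 4 peaks (4.86 to 8.21%) and 5.36% in genes with 5 or more (3.09 to 9.13%), and these intervals overlap.

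The 8 lists of pathway and patterning genes that were looked up held 206 genes together. Of these, 96 had a peak named for them, with 503 such peaks in all, and 23 had a broad peak outside dense chains, with 32 broad peaks among them. Broad peaks made up 32 of the 503 named peaks of the lists, or 6.36% (4.54 to 8.84%), and 171 of all 3667 named peaks, or 4.66% (4.03 to 5.39%). On chromosomes and outside dense chains they made up 32 of 265 list peaks, or 12.1% (8.69 to 16.6%), and 6.37% of all 2685 such named peaks (5.51 to 7.36%). All named peaks include those of the lists. Which genes had a named peak depended on the partial tables, one of which holds genes that changed in Bcat-MO embryos. By gene, 23 of 96 list genes with a named peak had a broad one, or 24.0% (16.5 to 33.4%), against 153 of all 1601 gene names, or 9.56%. List genes also had more peaks each, with 503 over 96 genes against 3667 over 1601, and so more peaks that could reach 700 bp. The shares by gene are therefore not like for like. The lists were chosen with results of these data in view, so these shares are a description and nothing was tested. Lists share some genes, and a gene without a named peak may have one outside the tables used here. The gene shares of single lists below have wide intervals and stand beside the 9.56% of all gene names. Per peak on chromosomes and outside dense chains, most intervals of single lists held 6.37%. The exceptions were Wnt pathway components (18.9%, 9.48 to 34.2%) and organizer genes (21.4%, 11.7 to 35.9%). Each leaned on a single gene, since *fzd10* gave 3 of the 7 broad peaks of the first and *otx2* 5 of the 9 of the second. The intervals treat such peaks as independent, which they are not, so neither list is set apart by them.

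Among Wnt pathway components, 5 of the 12 genes with a named peak had broad peaks, or 41.7% (19.3 to 68.05%). Beside *fzd10*, the Frizzled receptor genes *fzd4* and *fzd8* had peaks of 892 and 797 bp. The *fzd4* peak was in a chain of 4 with peaks of 412, 406 and 450 bp, and the *fzd8* peak was 1 of 10 named for that gene, 6 of which were in a dense chain. *rspo2*, a secreted agonist that raises Wnt receptor levels, had a single peak of 895 bp, 29820 bp from the nearest other. The *ctnnb1* peak of 1262 bp was single too and was the widest of the 7 peaks of the gene by far, since the other 6 were 244 to 526 bp wide.

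Of the Wnt antagonists, 3 of 8 genes with a named peak had a broad peak, or 37.5% (13.7 to 69.4%). They were *dkk1*, an inhibitor of the Wnt co-receptors, at 773 bp, *cer1*, a secreted inhibitor of Wnt, BMP and Nodal ligands, at 741 bp, and *sfrp2*, a soluble Frizzled-related protein, at 725 bp. The broad *dkk1* peak, at 5623734 to 5624506 on chromosome 7, was apart from the dense chain of 6 peaks at that gene, which ended at 5572254 and held a peak of 1073 bp. Among zygotic Wnt targets, 2 of 15 genes had a broad peak, or 13.3% (3.74 to 37.9%), an interval that holds the 9.56% of all gene names. They were *fzd10* and the homeobox gene *hoxd1* (1200 bp, beside a narrower peak of 515 bp).

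Organizer genes had 9 broad peaks in 5 of 13 genes, or 38.5% of genes (17.7 to 64.5%), and 5 of the 9 peaks were those of *otx2*. The others were those of *dkk1* and *cer1*, of the LIM homeobox gene *lhx1* at 717 bp, and of *hhex*, a homeobox gene of anterior endoderm, at 740 bp. The *lhx1* peak stood 411 bp from a narrower peak of 395 bp and was the only one of its 8 peaks to reach 500 bp. Of the endoderm transcription factors, 25.0% of genes had a broad peak (7.15 to 59.1%), an interval that holds the 9.56% of all gene names. Broad peaks were found for 2 of 8 genes. They were *hhex* and the forkhead gene *foxa2*, whose peak of 725 bp was in a chain with peaks of 589 and 641 bp.

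Other signalling lists had broad peaks outside dense chains as well. Among Nodal, BMP and TGF-beta genes, 2 of 17 had one, or 11.8% (3.29 to 34.3%), an interval that holds the 9.56% of all gene names. They were *id2* and the BMP ligand gene *gdf6* at 757 bp, while 5 genes of this list had 10 peaks of 700 bp or more inside dense chains. In the list of FGF, retinoic acid, Notch and Hedgehog genes, the share was 18.75% (6.59 to 43.0%), an interval that also holds 9.56%. Broad peaks were found for 3 of 16 genes. They were *aldh1a2*, the Notch target *hes1* at 908 bp and the Notch ligand gene *dlc* at 1091 bp. Neural and ectodermal factors had 5 of 15, or 33.3% (15.2 to 58.3%), all homeobox, zinc finger or Sox genes of the early nervous system and ectoderm. Their peaks were 719 bp wide at *pax6*, 790 bp at *fezf2*, 717 bp at *sox2*, 747 bp at *irx1* and 758 bp at *dlx3*. Those of *sox2* and *irx1* were each 1 of 16 peaks, of which 8 and 9 were in dense chains. Those of *fezf2* and *dlx3* were the only peaks named for their genes.

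**Figure D5:**
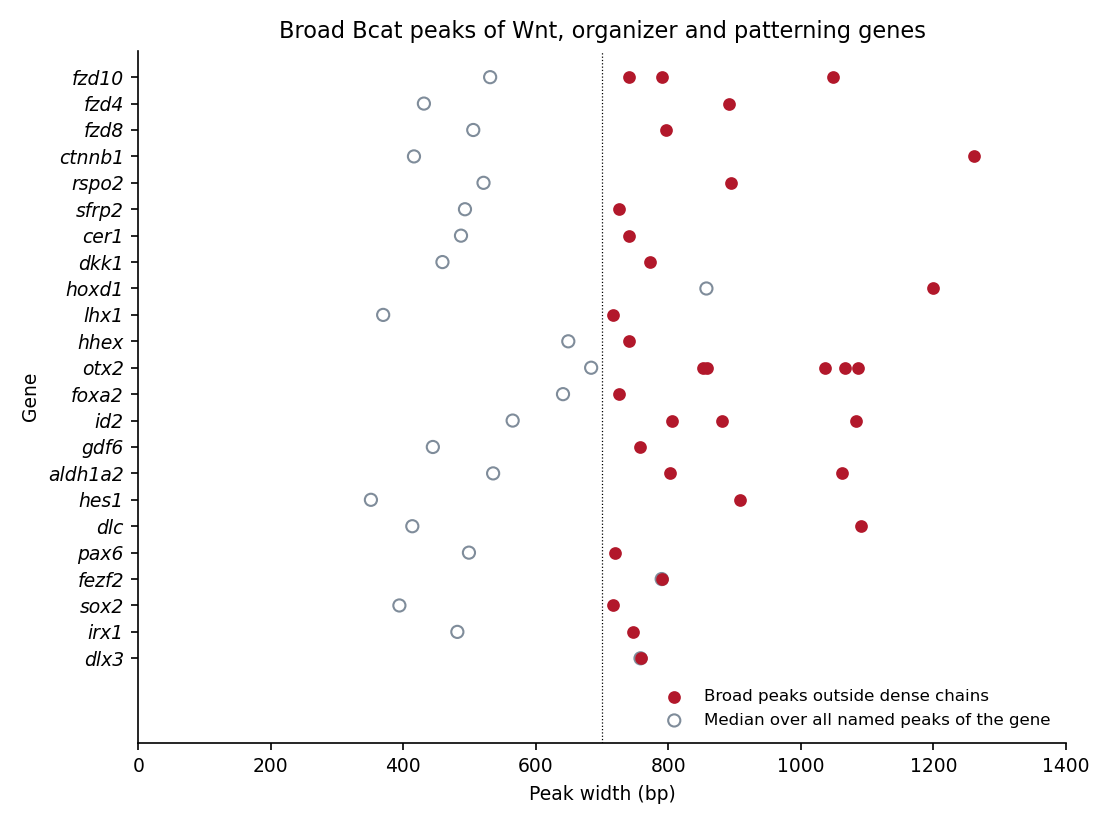
Width in bp of the 32 broad Bcat peaks of the 23 genes on the lists (red), with the median width over all named peaks of the gene (grey circle) and the 700 bp limit (dotted line). For 21 of the 23 genes the median lies left of the red points, and it coincides with the red point for *fezf2* and *dlx3*, which have 1 named peak each. Because the rule took peaks of 700 bp or more, a lower median over all peaks was largely built in.

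The study also lists 191 windows of 150 bp bound by both Sox17 and β-catenin at genes that both regulate, and 120 of these met a peak of the list. A window lay in 9 of the 492 broad peaks, or 1.83% (0.965 to 3.44%), and in 96 of the 8381 narrower peaks, or 1.15% (0.939 to 1.40%). The difference was 0.684 percentage points, with an interval of -0.216 to 2.31 that spans 0, and a longer peak covers more bases in which a window can fall. Per Mb of peak, broad peaks had 20.3 with a window and narrower peaks 29.4, which is the opposite order. That value counts each peak once, so at an equal share of peaks it is lower where peaks are wider. The study centred its 150-bp sequences on peak summits, so windows are not spread evenly over the bases of a peak. Neither measure is therefore free of peak width. With the limit at 500 bp the values separated: 38 of 1852 broad peaks, or 2.05%, and 67 of 7021 narrower peaks, or 0.954%, held a window, a difference of 1.098 points (0.488 to 1.88), with 31.1 per Mb in broad and 27.0 per Mb in narrower peaks. With the limit at 1000 bp, 2 of 86 broad and 103 of 8787 narrower peaks held one. That difference was 1.15 points, with an interval of -0.550 to 6.92 that spans 0. Per Mb there were 17.2 in broad and 28.7 in narrower peaks, the same order as at 700 bp. At the 700 bp limit, all 9 windows lay whole within their broad peak. The study chose the windows as bound by β-catenin, which favours a place inside a Bcat peak. The choice did not fix one, since only 120 of the 191 met a peak of this list.

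The 9 broad peaks with a window were those of *osr1* (1073 bp), *palm*, a membrane-associated phosphoprotein gene (1077 bp), *rspo2* (895 bp), *ccdc85c* (848 bp), *ntn3* (812 bp), *LOC100496394* (801 bp), *c5h1orf115* (790 bp), *dkk1* (773 bp) and *igf2*, an insulin-like growth factor (770 bp). The window names of *c5h1orf115* and *ntn3* are used here, since the peak tables call the first *LOC101733122* and the second *ntn3-like*. The centre of the window was between 5.5 bp from the centre of the peak, at *rspo2*, and 295 bp from it, at *ccdc85c*. At *osr1* the window, at 138527183 to 138527332, was 55.5 bp from the centre of the broad peak and differed from the reporter window printed above. A narrower peak of 497 bp followed 547 bp after the *osr1* peak.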

How the data were processed

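The deposited peak list holds other data than counts: for each peak its sequence, where it begins and where it ends, as the authors made it, with no score. Reads of a published Bcat dataset were trimmed with Trimmomatic, aligned to the v9.0 genome with Bowtie2 2.3.4.7 and cleared of duplicate and multi-mapped reads. Peak calling by the authors used MACS2 with NF10.5 input as the control, followed by an IDR filter on pseudoreplicates. A peak caller sets width and joins nearby signal, so both depend on its settings and on depth. Starts were read as BED and are printed counting from 1; the base may be off by 1, as the list has no header.

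Peaks were sorted and chained as described, and gaps were taken to the nearest peak on the same sequence. The routine was checked on simulated peaks. Python 3.11.15, pandas and scipy were used. No sample of the series entered a comparison, expression was not analysed here (52 RNA-seq samples), and the 959 peaks on unplaced scaffolds were left out. The list has no replicate, so no test between samples was possible. Shares carry 95% Wilson intervals and medians 95% binomial intervals.

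Genes were matched by exact start and end, and all peaks of both gene tables (1999 and 2038) were found in the list; 370 were in both, with the same gene ID each. Named were the 15 widest peaks with a name, 3 on each side of the limit with those of equal width, genes with 2 or more broad peaks, genes of the lists, and peaks with a co-bound window. One gene of the lists is not reported here. The members and lists were chosen with earlier results of these data known. Alternatives were other width limits, chain distances and overlaps, merging, centre distances, and keeping scaffolds or dense chains. A motif search in the peaks was not run, since no genome of this build was used here.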

Additional observations from a re-analysis of the deposited data

Results flagged for a closer look

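The comparisons above used no peak of the unplaced scaffolds, although 80 of the 959 peaks there were 700 bp or more, or 8.34% (95% Wilson interval 6.75 to 10.3%), against 6.83% of the chromosome peaks (6.37 to 7.32%). Their widths had a median of 831 bp and reached 2041 bp. The scaffold peaks were picked out only because no comparison used them.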

How the results depend on the processing

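Of 28 values recomputed under the alternatives, 16 stayed within 1.5 times the reported count or within the interval of the reported value, and 12 did not. Some of the 28, such as the counts of broad peaks, set no narrower value beside the broad one. Among the rest, none reversed the order of broad and narrower peaks. Windows per Mb, which were not among the 28, did change order. They were 31.06 in broad and 27.03 in narrower peaks at a limit of 500 bp, but 20.34 and 29.45 at 700 bp. The number of broad peaks was 1852 at a limit of 500 bp, 86 at 1000 bp and 295 with chains joined at 50 kb. The share with a neighbour was 57.8% of broad and 42.0% of narrower peaks at a limit of 500 bp, 52.5% and 34.6% at a chain distance of 5 kb, 71.2% and 59.3% at 50 kb, and 76.2% and 53.3% with dense chains kept. The median gap at a limit of 500 bp was 8145.5 bp for broad and 18817 bp for narrower peaks. At limits of 500 and 1000 bp the broad share was 21.8% and 0.855% on chromosome 6, and 23.6% and 1.22% on chromosome 9, so these chromosomes changed order. A lower limit or longer distance changes these values by construction.

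No paired analysis was possible because the list comes from 1 dataset and carries no replicate. The comparison rests on 1 peak list without heights or depth, so the width of a single peak has no error. Gene names covered part of the peaks, and the partial tables were used for no overlap or set test.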
